A study of Homo sapiens with 6 samples.

Results

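Linker histone H1 genes were followed in RNA of the human embryonic kidney line HEK293. Genes were taken by name, which gave 8 of the 56794 genes in the table, and 7 are described: HIST1H1A, HIST1H1B, HIST1H1C, HIST1H1D, HIST1H1E, the testis gene HIST1H1T and the replication-independent gene H1FX. The 2 groups were 3 parental libraries and 3 libraries labelled as mutant for CASP8AP2, a gene deleted with CRISPR. Both groups were HEK293 cells carrying luciferase, grown in Dulbecco's modified Eagle medium with fetal bovine serum. Whether the mutant line was 1 clone, and whether the 3 libraries of a group came from separate cultures, are points not given in the sources used here. A p-value therefore measures the spread between these libraries, which may be technical. The study asked about recombinant protein yield and G0/G1 arrest. The comparison asked how each H1 gene stood in the mutant libraries against the parental ones.

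Linker histones bind the nucleosome where DNA enters and leaves it, and hold the next stretch of the chromatin fibre together. The genes named HIST1H1 lie in the large histone cluster of chromosome 6 and, apart from HIST1H1T, which is used in spermatocytes, are transcribed mainly in S phase. Their messages carry no introns and usually finish with a stem-loop instead of poly(A), and CASP8AP2, also called FLASH, takes part in making that end. H1FX lies elsewhere, makes a polyadenylated message, and is not tied to S phase. Selection of poly(A) RNA for these libraries is not given in the sources used here.

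Each of the 7 genes had 1 transcript in the table, and each transcript model had 1 exon. On build hg38, the 6 HIST1H1 genes lay on chromosome 6 between 26017085 (HIST1H1A) and 27867529 (HIST1H1B). The first 5 of them lay within 218 kilobases, and HIST1H1B stood 1.63 megabases further on. HIST1H1E is on the plus strand, and the other 5 are on the minus strand. The models of HIST1H1A, HIST1H1B, HIST1H1C and HIST1H1D held the coding sequence only and stopped at the stop codon. Those of HIST1H1E and HIST1H1T ran on for 94 untranslated bases and ended inside the stem-loop, so their last bases are shown here with the stem-loop bases present in the model in capitals.
HIST1H1E: acaacccaaaGGCTCTTTTCAGA
HIST1H1T: agaacccaaaGGCTCTTTTAAGAG
H1FX is on chromosome 3 (129314771 to 129316277, minus strand), and its model holds 865 untranslated bases.

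The promoters are shown because the HIST1H1 genes share much of their layout and yet differed widely in level. RefSeq windows of 250 bases before to 50 after each start (GRCh38.p14) were matched for all 7 genes. A set of 3 motifs was searched on the strand of the gene: AAACACA, known as the H1 box, CCAAT, and TATATA or TATAAA. The capitals mark these matches, and each line ends with the TATA match. It starts 8 bases before the H1 box, or before CCAAT in HIST1H1A, and the H1FX line starts 30 bases before its TATA match.
HIST1H1A, chr6:26017813-26017849, minus: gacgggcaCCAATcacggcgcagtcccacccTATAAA
HIST1H1B, chr6:27867613-27867713, minus: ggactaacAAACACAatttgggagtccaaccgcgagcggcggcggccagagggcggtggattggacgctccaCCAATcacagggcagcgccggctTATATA
HIST1H1C, chr6:26056499-26056597, minus: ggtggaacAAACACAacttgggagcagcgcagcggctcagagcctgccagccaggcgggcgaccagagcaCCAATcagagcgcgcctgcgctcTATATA
HIST1H1D, chr6:26235014-26235114, minus: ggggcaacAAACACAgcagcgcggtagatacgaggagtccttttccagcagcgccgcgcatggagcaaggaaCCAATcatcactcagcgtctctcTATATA
HIST1H1E, chr6:26156204-26156303, plus: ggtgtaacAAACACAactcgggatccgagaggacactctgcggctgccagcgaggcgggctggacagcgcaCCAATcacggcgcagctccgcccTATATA
HIST1H1T, chr6:26108162-26108248, minus: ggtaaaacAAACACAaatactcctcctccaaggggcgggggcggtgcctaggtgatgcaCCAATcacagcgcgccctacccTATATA
H1FX, chr3:129316312-129316347, minus: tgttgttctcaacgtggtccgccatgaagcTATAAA

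All 3 motifs stood in the same order in 5 genes: HIST1H1B, HIST1H1C, HIST1H1D, HIST1H1E and HIST1H1T. The distance from the start of the H1 box to the start of CCAAT was 51 bases in HIST1H1T and 62 to 64 in the other 4. From CCAAT to the TATA match it was 22 or 23 bases in each of the 6 HIST1H1 genes. HIST1H1A held the H1 box letters only on the other strand, 183 bases before the start, and the H1FX window held a TATA match alone. Of 35116 RefSeq windows of the same length, 2.83% held AAACACA, 19.6% CCAAT and 10.2% a TATA match on the gene strand, and 55 windows, or 0.157%, held all 3. Counting either strand, AAACACA was in 5.64% and CCAAT in 34.6% of windows. The palindrome TATATA reads the same on either strand, so the 2 strands overlap for it. These are matches of letters, not measured binding.

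The deposited table gave group means only, but values of single libraries could be recovered for the 6 HIST1H1 genes. Levels below are the authors' length-scaled abundance with their added 1 taken off, and both groups sum to 496162 over all transcripts. Because reads come in whole numbers, the mean of a short, singly counted transcript allows 1 set of whole reads in the 3 libraries of its group. Sets were accepted only when they gave the deposited p-value again within 1e-07, which was so for 12372 of 12379 transcripts solved, 8.80% of the 140552 tested. H1FX could not be recovered. The estimated reads on transcripts numbered 57500000 in mutant library a, and between 9200000 and 15300000 in each of the other 5 libraries. Letters follow depth within a group, since the labels' replicate numbers could not be assigned. HEK293 markers and markers of other cell types were looked at as lists: 8 of 9 and 0 of 7 reached an abundance of 1 in either group. The neurofilament gene NEFM stood at 0.0690 in mutant and 8.63 in parental libraries (p = 0.00690 in the authors' deposited table), and the keratin gene KRT8 at 37.3 and 70.6 (p = 0.0178). The authors' deposited table gave p = 0.121 for VIM, at 530 and 425, and p = 0.0998 for KRT18, at 51.8 and 57.7. Levels of these markers are gene sums, and each p is of the most abundant transcript, which for KRT8 stood at 24.6 and 56.0. NEFH, at 0.0405 and 0.163, was the marker below 1 in both groups, and LHX1 stood at 0.910 and 1.02. No HEK293 marker was called, and their part in the H1 results was not tested. The markers of other cell types summed to 0.925 and 0.465, most of it CD68 (0.702 and 0.312), and the T cell gene CD3E, the globin gene HBB and the collagen gene COL1A2 were listed at 0. The deleted gene CASP8AP2 stood at 15.7 in mutant and 15.9 in parental libraries, a log2 ratio of -0.01, so its level does not check the labels.

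A pair of libraries stood apart from their groups. Over 936 recovered transcripts at an abundance of at least 1, with H1 left out, the leading component held 54.6% of the variance. It put mutant library c (14.1) and parental library b (8.88) at one end, and parental libraries a (-10.2) and c (-11.9) at the other, with mutant b at -3.91 and mutant a at 3.03. The second component, with 29%, separated the groups: 7.94, 9.85 and 0.438 for mutant libraries a, b and c, and -4.63, -9.65 and -3.95 for parental ones. Across these transcripts Pearson's r of mutant c was 0.933 with parental b, 0.927 with mutant a and 0.862 with mutant b. For parental b it was 0.857 with parental a and 0.844 with parental c, beside 0.967 between those. No label gave a difference in handling between libraries. For the recovered H1 genes, results that turn on these libraries are given with and without them. Genes that could not be recovered keep all libraries, also within sums.

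**Figure D1:**
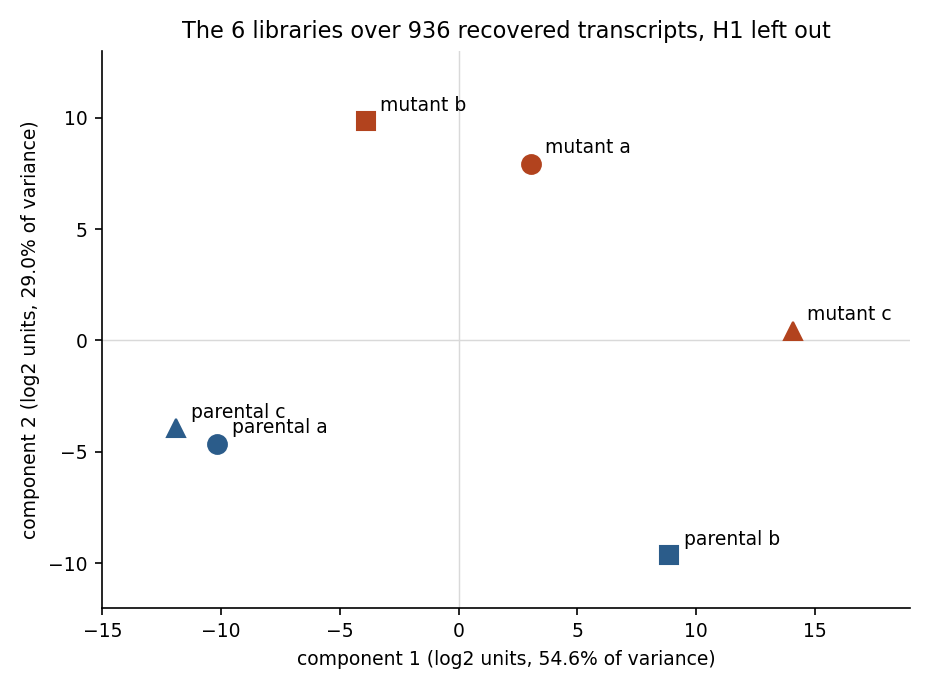
The 6 libraries by their scores on the first (x axis, 54.6% of variance) and second (y axis, 29%) principal component of log2(abundance + 1), orange for mutant and blue for parental, with letters for the library. Mutant c and parental b lie at the right, and all 3 mutant libraries lie above all 3 parental ones on the second component.

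HIST1H1C, one of the most widely used somatic subtypes, was the HIST1H1 gene read at a substantial level in these libraries. Its level was 74.8 in mutant library a, 43.2 in b and 78.0 in c, from 3413, 515 and 823 reads. In parental libraries it was 6.10 in a, 40.4 in b and 5.22 in c, from 74, 371 and 38 reads. The groups did not overlap, but parental b lay close under mutant b and far above the other parental libraries. The ratio of that nearest pair was 1.07, with an exact 95% interval of 0.936 to 1.23, which covers 1. It was the nearest of the 9 pairs of a mutant and a parental library, so it describes how close the groups came and does not test them. All intervals here cover counting error only. The means were 65.4 ± 19.2 (SD, n = 3) in mutant and 17.2 ± 20.0 (SD, n = 3) in parental libraries, 3.79-fold higher in mutant or a log2 ratio of 1.86 after 1 was added. The deposited p from the authors' deposited table was 0.0602, and their adjusted p was 0.703. Without parental b the parental mean was 5.66 and the log2 ratio 3.32, 11.6-fold. Without both libraries that stood apart it was 59.0 against 5.66, a log2 ratio of 3.17. Fitted with limma on the 12372 recovered transcripts, the mean log2 difference was 2.39 (SE 0.560), with an adjusted p of 0.369. In the limma fit without parental b it was 3.27 (SE 0.302), with an adjusted p of 0.199. Without both mutant c and parental b the limma fit gave 3.12 (SE 0.325), with an adjusted p of 0.569. HIST1H1C was therefore not called in any of these fits. In these bulk samples, fewer cells with a message and less message per cell cannot be told apart. Levels count only the message that the libraries captured, and poly(A) selection is not given, so the total message was not measured.

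The other somatic genes of the cluster were read at very low levels. HIST1H1B stood at 0.889, 0.475 and 0.894 in mutant libraries a, b and c, from 43, 6 and 10 reads. In parental libraries a, b and c it stood at 0.388, 0.103 and 0.259, from 5, 1 and 2 reads. Every mutant library was above every parental one, and the nearest pair, mutant b and parental a, rested on 6 and 5 reads. The means were 0.752 ± 0.240 and 0.250 ± 0.143 (SD, n = 3 each). Over the pooled reads of a group the mutant level was 3.10 times the parental one, with an exact 95% interval of 1.47 to 7.51. The p in the authors' deposited table was 0.0344 and the adjusted p 0.703, for a log2 ratio of 0.49 with 1 added and 1.28 with 0.1 added.

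HIST1H1D stood at 0.359, 0.162 and 0.548 in mutant libraries a, b and c, from 17, 2 and 6 reads. In parental libraries it was seen only in b, at 0.105 from 1 read, with 0 reads in a and c. The groups did not overlap, but the nearest pair, mutant b and parental b, rested on 2 reads and 1. The means were 0.356 ± 0.193 and 0.0349 ± 0.0605 (SD, n = 3 each), and the pooled ratio was 10.5 with an exact 95% interval of 1.72 to 431. The authors' deposited table gave a p of 0.0415 and an adjusted p of 0.703. The log2 ratio was 0.39 with 1 added and 1.76 with 0.1 added.

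HIST1H1E, whose promoter holds the same 3 motifs, overlapped between groups. It stood at 0.597, 0 and 0.888 in mutant libraries a, b and c (32, 0 and 11 reads) and at 0.491, 0.463 and 0.234 in parental ones (7, 5 and 2 reads). Mutant b was the lowest of all 6 and mutant c the highest. The means were 0.495 ± 0.453 and 0.396 ± 0.141 (SD, n = 3 each), and the pooled ratio was 1.29 (exact 95% interval 0.693 to 2.55). The authors' deposited table gave a p of 0.859, and the log2 ratio of 0.10 turned to -0.10 without mutant c and to -0.10 when the trend with GC content was taken off.

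HIST1H1A, a subtype known mainly from early development and germ cells, gave 1 read in mutant library a and 0 in the other 5 libraries. HIST1H1T, the testis subtype, gave 4 reads in mutant a, a level of 0.0784, and 0 in the other 5. A count of 0 over the 3 parental libraries allows a level of up to 0.104 for HIST1H1A and 0.0938 for HIST1H1T, above the pooled mutant levels of 0.0146 and 0.0525. Mutant a was also the library with the most reads, so a difference between groups was not detectable at this depth. The authors' deposited table gave a p of 0.374 for both.

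**Figure D2:**
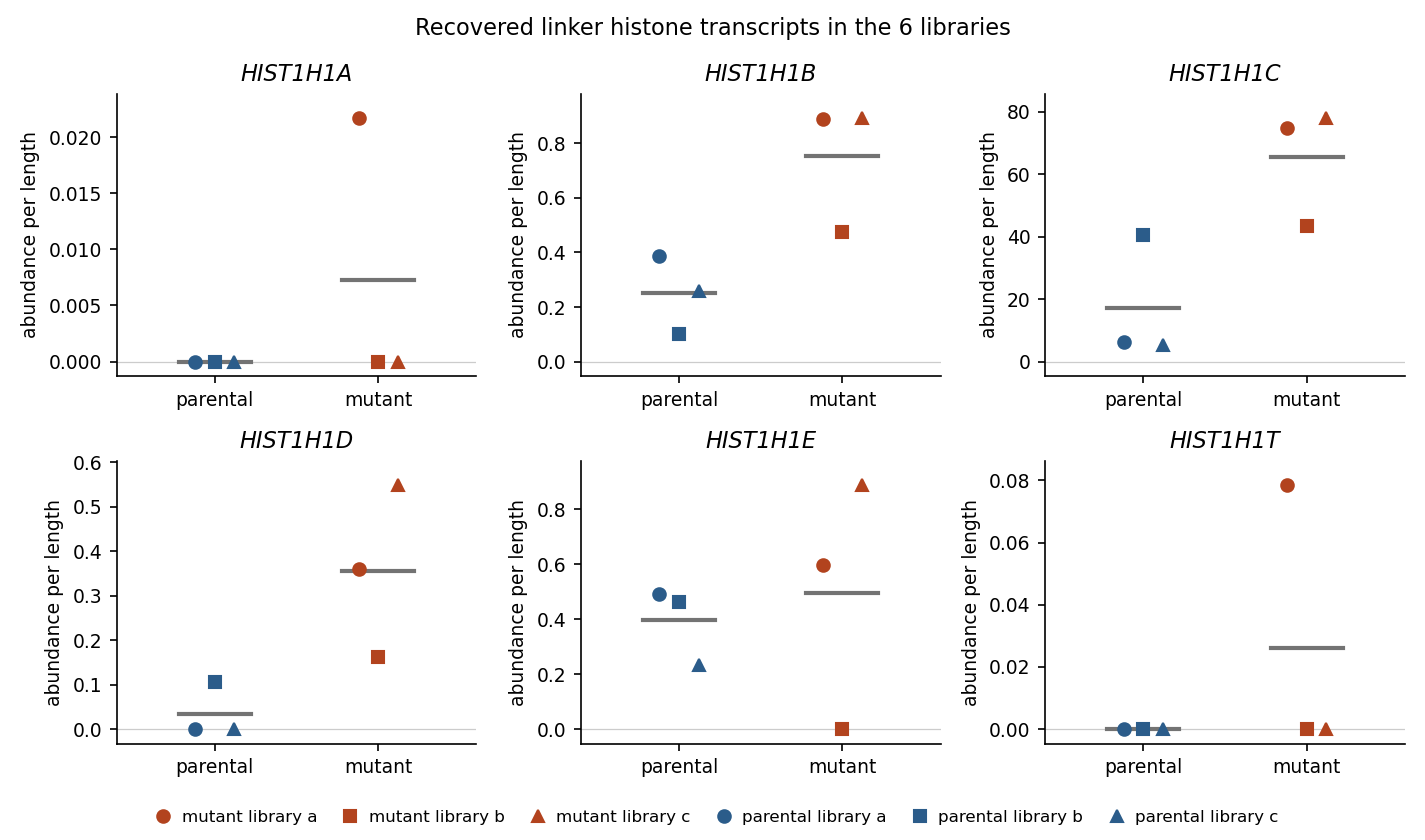
Length-scaled abundance (y axis, linear, a different range in each panel) of the 6 recovered H1 genes in the parental (blue) and mutant (orange) libraries. Points are single libraries and the grey bar is the group mean: in HIST1H1C parental b (40.4) lies near mutant b (43.2), and in HIST1H1E the groups overlap.

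H1FX, the replication-independent subtype, had the highest mean level of the 7 genes, with a mean of 108 in mutant and 127 in parental libraries, which are the authors' means with no spread to give. Its log2 ratio was -0.23, or -0.46 with the GC trend taken off, and the authors' deposited table gave a p of 0.474 and an adjusted p of 0.755. It was the 1 gene of the 7 with a lower mean in mutant libraries. The gene is overlapped on the other strand by H1FX-AS1 (chromosome 3, 129315392 to 129326225), 2 of whose transcripts share exon bases with it, 119 in the one with fewer. The use of strand in counting is not given in the sources used here, and reads of the shared bases cannot be told apart. H1FX-AS1 itself summed to 1.64 and 2.24. Of the 1458 words of 50 bases in H1FX, 17.2% also occurred in transcripts of that gene. No word of this length in the other 6 genes occurred in a transcript of another gene, although the coding sequences of HIST1H1C and HIST1H1E were 77.3% identical and those of HIST1H1D and HIST1H1E 76.7%.

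**Figure D3:**
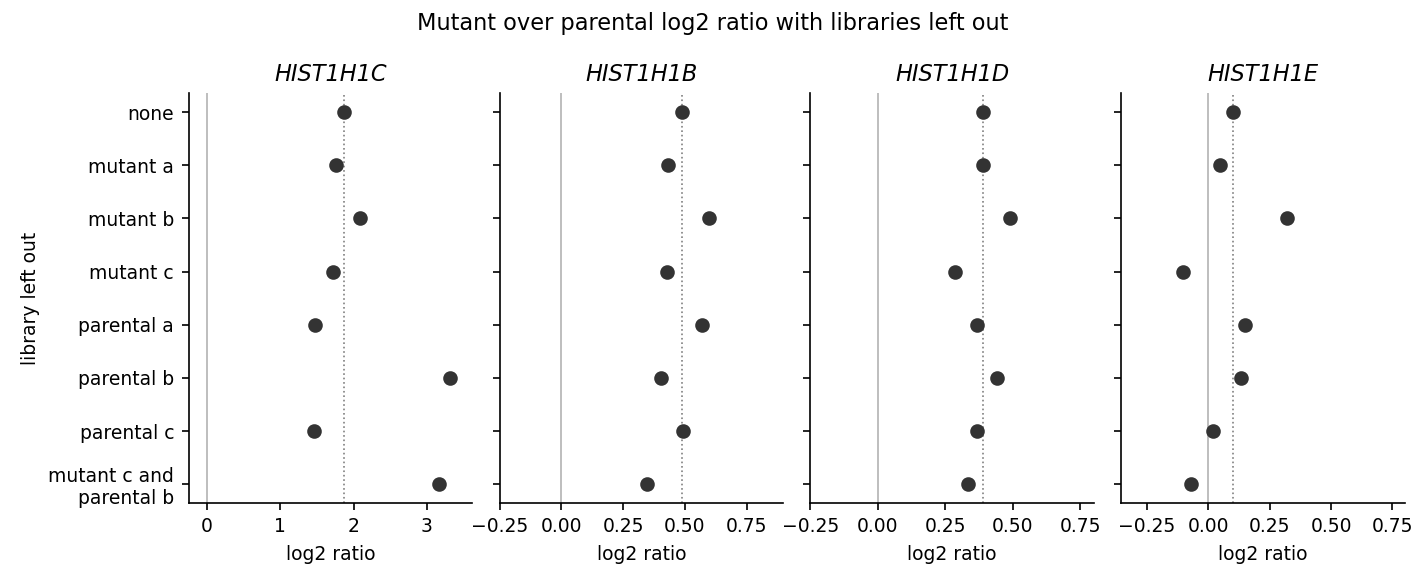
Log2 ratio of mutant over parental means (x axis, 1 added to both, a different range in each panel) of 4 H1 genes with all libraries and with each library, or mutant c and parental b together, left out (y axis). The dotted line is the value with all 6 libraries: HIST1H1C moves from 1.86 to 3.32 without parental b, and HIST1H1E lies on both sides of 0.

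Of the 7 genes, the authors' deposited table called 0 at an adjusted p under 0.05, where it called 0.0221% of all 140552 tested transcripts. At an unadjusted p under 0.05 there were 2, HIST1H1B and HIST1H1D, both higher in mutant libraries, where 5.79% of all transcripts passed and 3.3% passed and were higher. Limma on the recovered transcripts called 0 of 6, where it called 5 of all 12372. At an unadjusted limma p under 0.05 there were 3 of the 6, where 396 of all 12372 passed. Of the 6 recovered genes, 3 (HIST1H1B, HIST1H1C and HIST1H1D) had every mutant library above every parental one, where 3.64% of all recovered transcripts did, and 3 overlapped. None had every mutant library below every parental one, as 2.8% of recovered transcripts had. At an abundance of at least 1 these shares of all recovered transcripts were 8.96% and 14.1%, and HIST1H1C was the 1 recovered H1 gene there. By group means 6 genes stood higher and 1 stood lower. Of the 6, HIST1H1A rested on 1 read and HIST1H1T on 4 reads, all in mutant library a, the deepest. The median log2 ratio of the 7 was 0.10, beside -0.01 over 14856 genes at an abundance of at least 1, of which 49.4% were higher. Of the 7 genes, HIST1H1C and H1FX reached that abundance, 1 higher and 1 lower. The count and median of all 7 are therefore not directly comparable with those genes.

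The 6 HIST1H1 genes summed to 67.0 in mutant and 17.9 in parental libraries, 3.74 times as high, nearly all of it HIST1H1C. By library the sum was 76.8, 43.9 and 80.3 in mutant a, b and c and 6.98, 41.0 and 5.71 in parental ones, and without parental b the ratio was 10.6. With H1FX the 7 genes summed to 175 and 145, 1.21 times. Core histone genes named HIST1 on chromosome 6, summed by class as a description, stood at 18.6 and 5.59 for H2A (12 genes), 164 and 42.5 for H2B (15), 9.97 and 5.04 for H3 (10) and 9.58 and 4.68 for H4 (12), ratios of 3.32, 3.85, 1.98 and 2.05. With the genes named HIST2, HIST3 and HIST4, which lie on other chromosomes, the ratios were 2.11 for H2A (17 genes), 3.74 for H2B (18), 3.36 for H3 (15) and 4.97 for H4 (15). Of the core genes on chromosome 6, 6 stood higher and 4 lower for H2A, and 12 and 1 for H2B. The counts were 7 and 2 for H3, and 4 and 5 for H4. None was called, and the median log2 ratios by gene were 0.09, 0.45, 0.05 and 0, so the sums do not describe each gene. Several of these genes are near-identical copies between which the authors' counting could split reads, so single levels within a class are uncertain.

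Single libraries were recovered for 29 core histone genes named HIST. In 8 of them every mutant library was above every parental one, beside 3.64% of all recovered transcripts, 21 overlapped, and 0 were lower in every mutant library. Of the 8, HIST1H3E, HIST1H3H and HIST1H4I reached an abundance of 1, where that share was 8.96%. Others rested on few reads: HIST1H2AH on 3, 1 and 1 and HIST1H4D on 1, 1 and 3 in mutant libraries, with 0 in parental ones. HIST1H3E, an H3 gene, stood at 5.54, 3.54 and 3.59 in mutant libraries and at 1.50, 0.912 and 1.48 in parental ones, with parental b the lowest. HIST1H4I, an H4 gene, stood at 3.32, 2.04 and 1.22 against 0.531, 0.540 and 0.749. These 2 showed no high value in parental b. HIST1H2AI, an H2A gene, stood at 2.18, 1.29 and 2.42 against 0.736, 2.36 and 0.351, and HIST3H2A at 31.0, 37.3 and 25.3 against 18.6, 44.0 and 19.5. In both of these, as in HIST1H1C, parental b was far above the other parental libraries. These 4 genes were chosen after their values were seen, and over all 29 parental b was the highest parental library in 10. The 29 include genes with 0 reads in every parental library, such as HIST1H2AH, HIST1H2BB and HIST1H4D, which had no highest one.

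**Figure D4:**
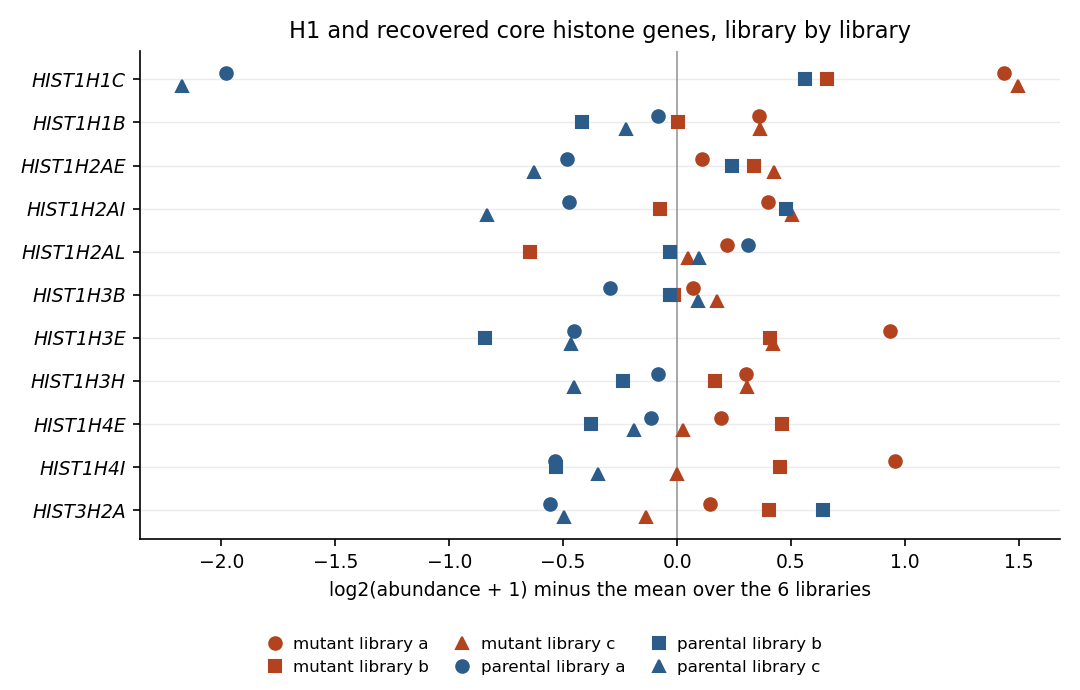
HIST1H1C, HIST1H1B and the 9 recovered core histone genes with a mean abundance of at least 0.5 over the 6 libraries, as log2(abundance + 1) minus the mean of the gene (x axis), orange for mutant and blue for parental libraries. Parental b (blue square) lies above at least 1 mutant library in HIST1H2AE, HIST1H2AI, HIST1H2AL and HIST3H2A, just below the lowest one in HIST1H1C and HIST1H3B, and further below all 3 in HIST1H1B, HIST1H3E, HIST1H3H, HIST1H4E and HIST1H4I.

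The neighbours of each H1 gene are given with their mutant and parental levels, and no difference between neighbours was tested. HIST1H1E lay between HIST1H2AC, 17237 bases to its left, at 11.3 and 1.77 in mutant and parental libraries, and HIST1H2BD, 1038 bases to its right, at 13.6 and 1.65. The p values of these neighbours in the authors' deposited table were 0.0148 and 5.45e-05, against 0.859 for HIST1H1E. HIST1H1D lay next to HIST1H3E (6794 bases, 4.22 and 1.30, p = 0.00545 in the authors' deposited table) and HIST1H4F, listed at 0. HIST1H1B lay 1050 bases from HIST1H2BN, at 5.64 and 2.33 (p = 0.0435 in the authors' deposited table), and 4375 from HIST1H3I, at 0.0114 and 0.0566. HIST1H1C, with the highest level of the cluster's H1 genes, had HIST1H3C, listed at 0, and the iron regulator HFE as neighbours. HFE stood at 0.0644 and 0.0111 (p = 0.00831 in the authors' deposited table). HIST1H1T had HIST1H2BC, at 1.73 and 0.364, and HIST1H4C, at 0.162 and 0.202. HIST1H1A had HIST1H3A, at 0.0551 and 0.0995, and TRIM38, at 1.40 and 0.897 (p = 0.0434 in the authors' deposited table). Outside the cluster, HMCES, next to H1FX, stood at 16.9 and 22.4 (p = 0.0134 in the authors' deposited table) and EFCAB12 at 0.154 and 0.153.

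Proteins that carry, load or compete with H1 were taken from lists. Of 10 genes for H1 chaperones, import receptors and partners, 2 stood higher and 8 lower in mutant libraries, and their median log2 ratio was -0.37. None was called. At an unadjusted p under 0.05 of the most abundant transcript 1 was higher and 5 were lower, where 5.64% and 8.86% of all 14856 genes were. Levels given for the listed genes are gene sums, while each p is of the most abundant transcript alone. The H1 chaperone NASP stood at 106 and 197 in mutant and parental libraries, and the p was 0.0393 in the authors' deposited table. The NASP transcript tested stood at 51.6 and 102. PTMA, which encodes prothymosin alpha, an acidic H1-binding protein, stood at 664 and 951 (p = 0.0111 in the authors' deposited table), and the chaperone SET at 183 and 273 (p = 0.0446). L3MBTL1, a chromatin-compacting protein that binds H1, stood at 2.59 and 4.69 (p = 0.0131), and NAP1L4 at 81.8 and 84.0 as a gene, with 40.4 and 52.8 for the transcript tested (p = 0.0333), both from the authors' deposited table. IPO7, an import receptor for H1, was the 1 higher gene under that threshold, at 70.7 and 45.9 (p = 0.0354 in the authors' deposited table). NAP1L1 was the other higher gene, at 377 and 335 (p = 0.198 in the authors' deposited table).

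Of 9 genes for HMG proteins, which bind nucleosomes or linker DNA, 1 stood higher and 8 lower, none was called, and the median log2 ratio was -0.12. At an unadjusted p under 0.05 there were 2, both lower, where 8.86% of all 14856 genes were lower. HMGN2, a nucleosome-binding protein that weakens H1 binding, stood at 488 and 753, and the authors' deposited table gave a p of 0.000308 and an adjusted p of 0.223. HMGB1 stood at 149 and 189 as a gene, with 56.1 and 85.4 for the transcript tested (p = 0.0232 in the authors' deposited table). HMGA1 stood at 225 and 199 (p = 0.0747) and HMGN3 at 49.8 and 54.0 (p = 0.395) in the authors' deposited table. Of 20 genes of the histone locus body or of histone message processing, 7 stood higher and 13 lower, none was called, and the median was -0.11. At an unadjusted p under 0.05, 1 was higher and 3 were lower, where 5.64% and 8.86% of all 14856 genes were. The higher gene was the translation factor CTIF at 10.7 and 6.16 (p = 0.0364 in the authors' deposited table). Among the 3 lower genes were the Sm proteins SNRPB at 176 and 299 (p = 0.0146) and SNRPE at 36.2 and 63.4 (p = 0.0199), from the authors' deposited table. The SNRPE transcript tested stood at 6.10 and 21.1. The other was CPSF3, the endonuclease that cuts histone pre-mRNA, at 20.7 and 28.9 (p = 0.0161 in the authors' deposited table). The 3 germline linker histone genes H1FNT, HILS1 and H1FOO were all far below an abundance of 1, and summed to 0.113 and 0.0405.

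Genes most like 2 of the H1 genes were named as a description. By distance between the log2 levels of both groups over 14853 genes, those nearest to H1FX were PAICS (107 and 126), an enzyme of purine synthesis, the tropomyosin gene TPM4 (106 and 129) and the splicing factor SRSF11 (106 and 124). Over the 6 libraries and 936 recovered transcripts at an abundance of at least 1, Pearson's r with HIST1H1C was highest for OSTF1 (0.979), LATS2 (0.974) and ZCCHC24 (0.972). LATS2, a kinase of the Hippo pathway, stood at 3.04, 2.22 and 2.99 in mutant and at 1.36, 2.13 and 0.944 in parental libraries. The 6 points share their libraries and depth.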

How the data were processed

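Per the submitters' processing notes, bcl2fastq, STAR and Partek were used with build hg38. Strand use, versions and the annotation behind the counting are not given in the sources used here. A deposited score called LSMean was, per the file headers, a least-squares mean, and its values are group means of a length-scaled abundance plus 1. The authors' p-value, adjusted p, ratio and fold change, also held as scores, and the deposited signal called total counts, which equals 3 times the sum of the group means, were taken as given. An adjusted p under 0.05 over 140552 transcripts made the calls.

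Transcript names were matched to GENCODE release 29 (99.1% found). A gene's level is the sum of its transcripts, and 1 was added before log2 ratios. A p given for a gene is that of its most abundant tested transcript. Whole reads of single libraries were recovered from group means, lengths and the worth of 1 read in each library, and accepted where the deposited p came back within 1e-07. The recovered transcripts are mostly short or with few reads and are not a random sample. As an added alternative, limma 3.58.1 in R 4.3.3 was fitted with a trend on log2(abundance + 1) of 12372 recovered transcripts, with Benjamini-Hochberg adjustment over all of them. Components and read recovery ran in Python 3.11.15. Pooled ratios carry exact 95% intervals, and a count of 0 allows up to 3 reads. The recovery and the limma fit were tested on simulated data.

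Named were the members, the listed genes with the 4 smallest p-values or a p under 0.05, the neighbours, and the 3 genes nearest to the reported member with the highest mean. Of the 8 members 1, and some listed genes, are not reported here, and no count, median, sum or figure on the members or lists includes them. Of the marker lists, markers at 0 or under an abundance of 1 were named as well. Likeness over libraries and the core histone examples were added later. The members and lists were chosen with earlier results of these data known. Alternatives were another added value, scaling, GC trend, thresholds, filters, and libraries left out.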

Additional observations from a re-analysis of the deposited data

How the results depend on the processing

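The count of H1 genes called was 0 in the authors' deposited table and 2 at an unadjusted p under 0.05. It was 0 at an adjusted p under 0.01, with the deposited adjusted p of the factor Type, and with adjustment over the 37102 transcripts at an abundance of at least 1, where the smallest member value was 0.443. It was also 0 with limma on recovered transcripts, with each library left out (0 to 0), and without mutant c and parental b. Members at an unadjusted p under 0.05 in limma numbered 0 to 3 over libraries left out, and 0 without mutant a or without mutant c. Of all 12372 recovered transcripts, 333 to 584 passed that threshold with 1 library left out. The smallest adjusted p of a member ran from 0.199 to 0.818 over the libraries left out.

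The median log2 ratio of 0.10 was 0.33 with 0.1 added and 0.08 with the GC trend taken off, and 0.04 to 0.32 with 1 library left out. The log2 ratio of the summed level, 0.27, was 1.85 without H1FX, the highest member, and 0.21 to 0.39 with 1 library left out. In both left-out ranges H1FX, which could not be recovered, kept its means over all libraries of a group. The range of the sum therefore does not show how far its largest term depends on single libraries. Setting the median of all genes to 0 meant a shift of 0.0067 in log2, and no member's ratio moved by more. The HIST1H1A log2 ratio of 0.01 was -0.03 with the GC trend taken off. Depth limits HIST1H1A, HIST1H1B, HIST1H1D, HIST1H1E and HIST1H1T, read from 0 to 43 times in a library.

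No paired analysis was possible because the deposited group means carry no replicate numbers and the recovered libraries could not be tied to those of the labels. Count models with other normalizations were not run, since whole reads were recovered for 8.80% of tested transcripts only.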
